A study of Arabidopsis thaliana with 4 samples.

Results

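Open chromatin was examined at 10 genes that govern the response of Arabidopsis thaliana seedlings to light. They are PIF1 (AT2G20180), PIF3 (AT1G09530), PIF4 (AT2G43010), PIF5 (AT3G59060), HY5 (AT5G11260), HYH (AT3G17609), HFR1 (AT1G02340), COP1 (AT2G32950), FHY1 (AT2G37678) and FHY3 (AT3G22170), a list of names fixed by gene identity, drawn up with earlier results of these data known. A gene was followed through every DNase I peak that overlapped its span or the 2 kb on either side of it. The 10 genes are part of 27444 nuclear protein-coding genes, and their windows held 43 of the 36153 accessible regions in the data. The windows held 33 of 27388 nuclear peaks in Tsu-1, 34 of 29699 in Est-1, 34 of 28821 in Bay-0 and 33 of 25298 in Bur-0.

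The data are DNase I-seq peak lists from whole 7-day-old seedlings of 4 natural accessions, with 1 library each, labelled Tsu-1, Est-1, Bay-0 and Bur-0. DNase I cuts DNA where it is not wrapped in nucleosomes, and the assay sequences short fragments freed by a pair of cuts, so peaks mark open DNA. All 4 groups shared age, long-day growth (16 h light at 22°C, 8 h dark at 20°C) and the line UBQ10:NTF::ACT2:birA, whose transgenes biotinylate a nuclear tag so that nuclei can be captured. The labels also give 0.8% agar and 2 to 4 days of stratification for all 4, without the exact days for each sample. The UBQ10 promoter is active in most cell types, so the nuclei are a mixture of tissues. A site open in a few cells and one opened weakly in many cannot be told apart. The labels also give Col-0 as the genetic background of all 4 samples, which the accession names do not match, and the series design gives Tsu-0 in place of the Tsu-1 of the sample labels. Each accession has 1 library, so differences between accessions have no replicate check and no p-value, and sequencing depth is unknown here. Peaks overlapped the windows of all 4 leaf and all 4 root markers examined in every list, while seed and floral genes were mixed. Of all 27444 coding genes, 63.3% had a peak in all 4 lists with 2 kb each side, so counts this small identify no tissue. Of 6 seed genes, SESA2, SESA3 and SESA4 had none in any list, SESA1 had a peak in 2 lists, OLE1 in 3 and CRA1 in all 4. Of 3 floral genes, AG had none in any list, and AP3 and PI had peaks in all 4.

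Phytochromes, the red and far-red light receptors, enter the nucleus in light and there bind PIF proteins, bHLH transcription factors that favour growth in the dark, and cause their breakdown. COP1, a ubiquitin ligase, removes the light-promoting factors HY5, HYH and HFR1 in the dark, and light relieves this. FHY1 carries phytochrome A into the nucleus, and FHY3 is a transposase-derived transcription factor that switches on FHY1.

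All 10 regulators had a peak in all 4 lists, which 63.3% of the 27444 coding genes did with the same window. The strength of the openings differed widely between the genes. The authors' signal value of a peak, a whole number with no stated scaling, serves here to rank peaks within 1 list, in percentiles from weak to strong (highest 100). Ranks of separate lists stand side by side below but measure no change, since the lists differ in length. The highest peak of the window ranked above 50 in all 4 lists for 8 of the 10 genes, all but COP1 and FHY1, against 33.1% of all coding genes. It ranked above 90 in all 4 lists for PIF3, PIF4, PIF5 and HFR1, 4 of 10, against 6.02%. When a peak counted only for its nearest coding gene, HFR1 fell short of 90 in Est-1 (85.4) and Bay-0 (84.9), and the other 3 genes stayed above it. By the same count HY5 kept only an Est-1 peak, at 12.3, and so no longer ranked above 50. Neither share of all coding genes was recounted by nearest gene. The median highest rank of the 10 genes was 91.5 in Tsu-1, 90.7 in Est-1, 90.5 in Bay-0 and 90.4 in Bur-0. Over all coding genes with a peak it was 58.0 in Tsu-1, 59.7 in Est-1, 60.0 in Bay-0 and 57.2 in Bur-0. The 10 genes are also longer, with a median length of 2960 bp against 2078 bp for all coding genes, which widens their windows. The part of gene length in these shares was not tested.

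Ordered by the lowest of their 4 highest ranks, the genes ran PIF4, HFR1, PIF3, PIF5, PIF1, FHY3, HY5, HYH, FHY1 and COP1. The range over the 4 lists was 96.2 to 98.3 at PIF4 and 26.4 to 53.0 at COP1. Neighbours in this order had overlapping ranges, apart from FHY3 (86.8 to 92.4) over HY5 (78.9 to 86.5) and HY5 over HYH (59.6 to 74.9).

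**Figure D1:**
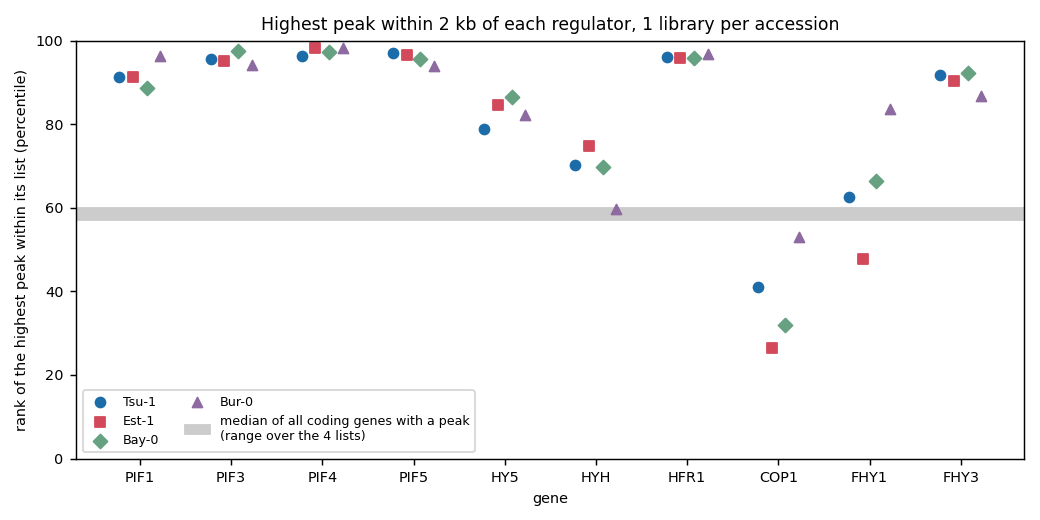
Rank of the highest peak within its list (y axis, percentile of signal) for each gene (x axis) and accession (symbols), with a grey band for the median of all coding genes with a peak, 57.2 to 60.0 over the 4 lists. PIF4 lies at 96.2 or above in each list, COP1 lies below the band in each, and FHY1 spans it with 47.6 to 83.6.

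Of the 43 regions, 27 (62.8%, exact 95% interval 46.7 to 77.0, counting error only) were held by all 4 lists, beside 54.3% of all regions, so the interval includes the background. A region is the union of peaks, from any of the 4 lists, that touch or overlap. A single list held 8 of the 43, 18.6%, against 17.5% of all regions. These 8 were 4 in Bay-0, 3 in Est-1, 1 in Bur-0 and 0 in Tsu-1. Of the 27 shared regions, 11 (40.7%, exact interval 22.4 to 61.2) had the same start and end in all 4 lists, against 21.1% of shared regions with 1 peak per list. Most of the 11 lay at PIF4 and HFR1, and PIF3, PIF5, HYH, COP1 and FHY1 had none. The interval takes regions of 1 gene as independent, so it may be too narrow. The 27 regions had a median top rank of 88.8, against 71.3 for all shared regions, and the part of rank was not tested. The peak starts of the 27 regions were spread over a median of 40 bp, as were those of all 19382 such regions.

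**Figure D2:**
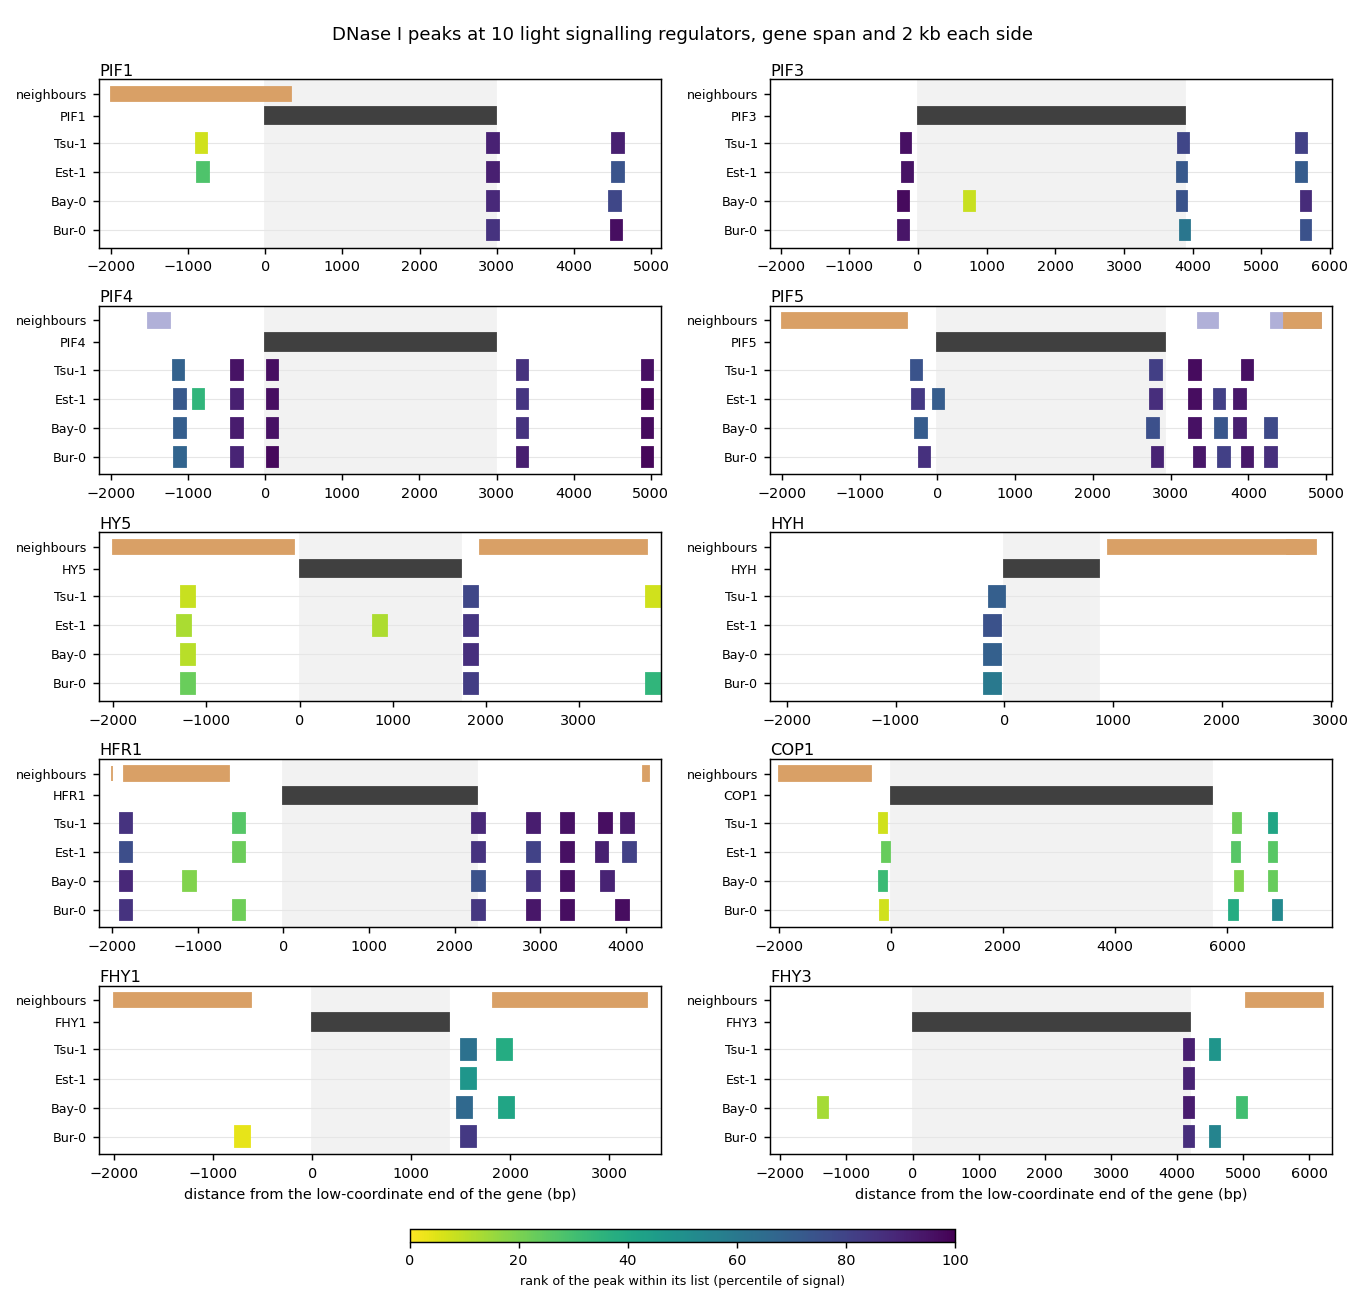
Peaks at each gene by accession (rows), plotted as distance in bp from the low-coordinate end of the gene, with the gene in dark grey and neighbouring genes above it (orange coding, lilac noncoding). Colour is the rank within the list. PIF5 and HFR1 have runs of high-ranking peaks beyond their high-coordinate end, COP1 has 12 peaks of which 1 ranks above 50, and HYH has 1 peak per list.

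The 4 PIF genes held 20 of the 43 regions, and 14 of these were in all 4 lists. The gene table used here has no strand, so gene ends are called low or high by coordinate, and starts of transcription were not told apart from ends. PIF4, which promotes hypocotyl growth in warmth and shade, had 6 regions, and 5 were in all 4 lists. One of them began 20 bp inside the low end (chromosome 2, 17886121 to 17886270). Its signal was 350 in Tsu-1, 534 in Est-1, 447 in Bay-0 and 490 in Bur-0, with ranks of 96.2, 96.2, 95.4 and 97.7 in the same order. A second lay 290 bp outside that end (17885661 to 17885810), with ranks of 95.2 in Tsu-1, 91.0 in Est-1, 92.6 in Bay-0 and 90.1 in Bur-0. Each of these peaks had the same coordinates in all 4 lists, as had another beyond the high end (17889361 to 17889510), ranked 84.8 to 91.6. A region 1893 bp beyond the high end (17890981 to 17891130) ranked 95.9 to 98.3, the highest of the PIF4 window in every list but Tsu-1, where the region inside the low end was higher. The midpoint of the distal region was 447.5 bp from PAO2, a polyamine oxidase gene, and so nearer to that neighbour. A weaker region 1030 bp below the gene (17884901 to 17885070) ranked 68.3 to 72.6, and Est-1 alone had a further peak at 34.8.

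PIF5, the closest relative of PIF4, had 7 regions, 4 of them in all 4 lists. Of all coding genes, 3.05% had at least 7 regions in their window, as PIF5 and HFR1 did. At least 4 regions held by all 4 lists were found at PIF4, PIF5 and HFR1, and at 6.52% of coding genes. Beyond the high end of PIF5, 4 regions stood within 1130 bp (chromosome 3, 21831141 to 21832270). Peaks covered 26.5% of this stretch in Tsu-1, 39.8% in Est-1 and 53.1% in both Bay-0 and Bur-0. The first and strongest, 303 bp outside the gene (21831141 to 21831350), had signals of 370 in Tsu-1, 549 in Est-1, 455 in Bay-0 and 363 in Bur-0. These are ranks of 97.1, 96.6, 95.7 and 94.0 in that order, so all 4 lists placed it near the top. It overlapped a long noncoding RNA gene, AT3G09185. The next (21831461 to 21831670) ranked 73.4 to 81.0 in the other 3 lists and had no Tsu-1 call. The third (21831721 to 21831970) ranked 91.5 to 96.1 in all 4, and the last (21832121 to 21832270) was called in Bur-0 (86.3) and Bay-0 (77.4). The midpoints of the third and last were nearer to AT3G59070 (518.5 and 168.5 bp) than to PIF5 (1008.5 and 1358.5 bp). Inside PIF5, a region 27 bp from the high end ranked 75.4 to 90.3. On the low side, the gap of 395 bp to PAO3, another polyamine oxidase gene, held a region in all 4 lists (21827561 to 21827810) at ranks of 71.1 to 86.0. Its midpoint was nearer to PAO3 (176.5 bp) than to PIF5 (219.5 bp). The starts of its 4 peaks were spread over 100 bp, and in Est-1 a second peak followed across the gene end (21827841 to 21827990, rank 70.9).

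Both PIF4 and PIF5 thus have a polyamine oxidase gene as a neighbour, PAO2 on the high side and PAO3 on the low side. Measured from the gene end that faces away from it, both genes had a region just inside, 20 to 169 bp from the end at PIF4 and 27 to 236 bp at PIF5. Both had a region just outside as well, 291 to 440 bp at PIF4 and 304 to 513 bp at PIF5, ranked at least 90.1 and 94.0. Farther out the genes differed. PIF4 had a region in all 4 lists at 1031 to 1200 bp with ranks up to 72.6. PIF5 had one at 884 to 1133 bp with ranks of at least 91.5. By midpoint, that PIF4 region had PIF4 as its nearest coding gene, whereas that PIF5 region was nearer to AT3G59070. This alignment was chosen after the values were seen and has no test.

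**Figure D3:**
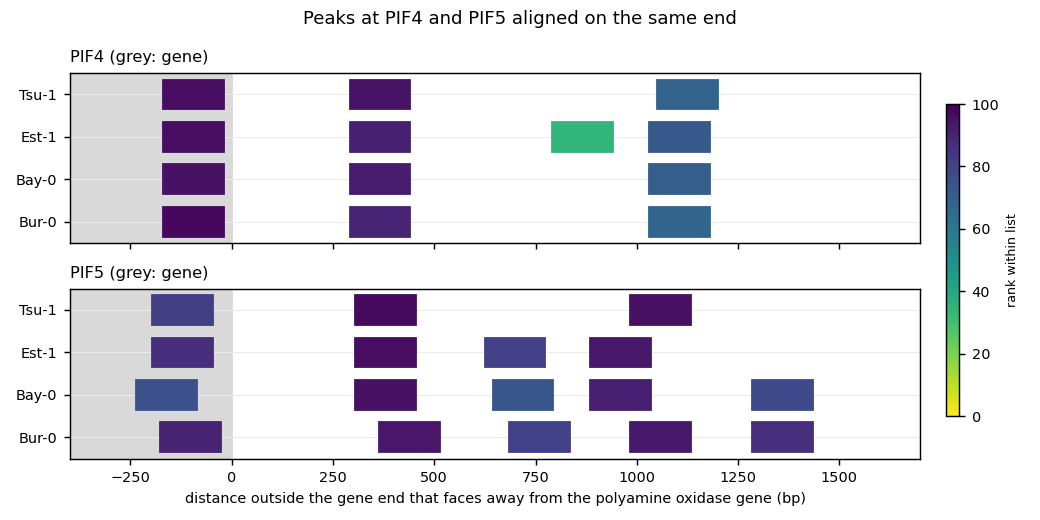
Peaks at PIF4 (upper panel) and PIF5 (lower panel) by accession, plotted as distance in bp outside the gene end that faces away from the polyamine oxidase neighbour, with the gene shaded and colour for rank within the list. Both genes have a region inside the end and one about equally far outside it, at 291 to 440 bp for PIF4 and 304 to 513 bp for PIF5.

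PIF3, the founding member of the family, had its strongest region 77 bp below the gene (chromosome 1, 3075481 to 3075690). The signal there was 338 in Tsu-1, 502 in Est-1, 517 in Bay-0 and 369 in Bur-0, at ranks of 95.7, 95.1, 97.6 and 94.3. A region across the high end (3079541 to 3079730) ranked 60.8 in Bur-0 and 72.6 to 79.1 in the other lists. Another lay 1626 bp beyond it (3081281 to 3081490), at 71.3 to 87.9. No coding neighbour of PIF3 stood within 2 kb, with the nearest 3693 bp and 6446 bp away. PIF3 was therefore the nearest coding gene of all 4 of its regions, the last being a Bay-0 peak inside the gene at rank 8.26.

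PIF1, which holds back seed germination and chlorophyll synthesis in the dark, had 2 regions in all 4 lists. One crossed its high end (chromosome 2, 8706901 to 8707050) with identical coordinates in each list, ranked 90.9 in Tsu-1, 91.2 in Est-1, 88.6 in Bay-0 and 85.4 in Bur-0. The other lay 1471 bp beyond (8708481 to 8708670), at 91.2 in Tsu-1, 74.2 in Est-1, 78.7 in Bay-0 and 96.3 in Bur-0. In Bur-0 and Tsu-1 the distal region was the higher of the pair, and in Bay-0 and Est-1 the one at the gene end was. On the low side PIF1 overlapped AT2G20170 by 334 bp, and the peaks there, within that neighbour, came from Est-1 (27.9) and Tsu-1 (7.39).

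HY5, a bZIP factor that binds the promoters of many light-induced genes, had a single strong opening, wedged against its neighbour. The gap between HY5 and OCP3, a homeodomain gene of the pathogen response, is 200 bp, and a 150 bp peak in it (chromosome 5, 3595101 to 3595250) had the same coordinates in all 4 lists. Its signal was 191 in Tsu-1, 348 in Est-1, 321 in Bay-0 and 237 in Bur-0, at ranks of 78.9, 84.5, 86.5 and 82.2. The midpoint lay 102.5 bp from HY5 and 98.5 bp from OCP3, so the peak cannot be given to either gene by distance. The remaining HY5 regions were weak. A region within AT5G11250, 1124 bp below HY5, ranked 8.27 to 23.0 in all 4 lists, and Est-1 alone had a peak inside HY5, at 12.3. A region at the far edge of the window, where OCP3 meets AT5G11280, ranked 7.39 to 34.4, and its Bay-0 and Est-1 peaks lay outside the window. HYH, the homologue and partner of HY5, had 1 region, the fewest of the 10 genes, across its low end (chromosome 3, 6023661 to 6023850). Its signal was 157 in Tsu-1, 275 in Est-1, 219 in Bay-0 and 151 in Bur-0, at ranks of 70.2, 74.9, 69.8 and 59.6. Only the Tsu-1 peak crossed the low end of HYH, and the Est-1, Bay-0 and Bur-0 peaks lay 33 bp outside the gene. The gap of 84 bp to RBL14 on its high side held no peak in any list.

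HFR1, an atypical bHLH protein that sequesters PIFs, had 8 regions, the most of the 10 genes. Beyond its high end 4 regions stood within 1270 bp (chromosome 1, 468461 to 469730), covered by peaks over 35.4% in Bur-0 and Bay-0 and 47.2% in Est-1 and Tsu-1. The outer 3 of these had their midpoint nearer to AT1G02350 than to HFR1. The strongest shared one (468861 to 469010) had a signal of 334 in Tsu-1, 519 in Est-1, 457 in Bay-0 and 420 in Bur-0. Its ranks were 95.5, 95.8, 95.8 and 96.2, with identical coordinates in each list. Further regions with identical coordinates stood across the high end (467821 to 467970, ranks 74.8 to 88.7) and 580 bp beyond it (468461 to 468610, ranks 80.4 to 94.1). Toward the next gene, AT1G02350, the calls were split differently. Est-1 and Tsu-1 each had a pair of peaks, at 91.2 and 80.6 in Est-1 and at 96.2 and 93.0 in Tsu-1, where Bur-0 and Bay-0 each had 1. The Bur-0 peak (rank 96.7) fell in the outer region (469501 to 469730) and the Bay-0 peak (90.4) in the inner one (469261 to 469470). Each of these lay 30 bp from the region it was not counted in. Below HFR1, toward GL22, a germin-like gene, a region in 3 lists ranked 22.2 to 26.3. A stronger one (463701 to 463850), at 76.2 to 88.8, lay at the far end of GL22 and overlapped that gene.

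COP1 was the weakest of the 10 genes although it is the longest, at 5729 bp. It had 3 regions, all 3 in all 4 lists, and its 12 peaks ranked 7.24 to 53.0 with a median of 24.6. A region 10 bp below the gene (chromosome 2, 13977661 to 13977870) lay in the gap of 359 bp to AGO6, an Argonaute gene of RNA-directed DNA methylation. Its signal was 49 in Tsu-1, 106 in Est-1, 117 in Bay-0 and 68 in Bur-0, at ranks of 7.39, 23.2, 32.0 and 7.24. Above the gene, one region (13983921 to 13984170) ranked 18.8 to 38.5 and another (13984621 to 13984850) ranked 41.1 in Tsu-1, 26.0 in Est-1, 23.2 in Bay-0 and 53.0 in Bur-0. No region overlapped the COP1 gene itself, and none of the 3 had identical coordinates in all 4 lists.

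FHY1, the nuclear import factor of phytochrome A, had 1 region in all 4 lists, 87 bp above its high end (chromosome 2, 15802881 to 15803070). The signal there was 135 in Tsu-1, 165 in Est-1, 205 in Bay-0 and 246 in Bur-0, at ranks of 62.5, 47.6, 66.4 and 83.6. This was the widest range of highest rank among the 10 genes, 35.9 points, and it rests on 1 library at each end. The region lay in the gap of 449 bp to AT2G37680, whose window therefore holds the same peaks, and which had the most similar ranks of 17383 genes compared over 4 libraries. Next came AT3G55750 and AT3G55760, which share a peak with each other, at a summed absolute rank difference of 10.2 from FHY1. Beside it, Bay-0 (41.0) and Tsu-1 (38.3) had a second peak within AT2G37680, and Bur-0 alone had one within AT2G37670, at 3.55.

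FHY3 had 4 regions, and 1 was in all 4 lists. It crossed the high end of the gene (chromosome 3, 7826101 to 7826250) with the same coordinates in each list. Its signal was 280 in Tsu-1, 413 in Est-1, 389 in Bay-0 and 270 in Bur-0, at ranks of 91.8, 90.2, 92.4 and 86.8. The others were a region 304 bp beyond that end, called in Bur-0 (54.9) and Tsu-1 (47.9), and single Bay-0 peaks at 30.3 and 13.3. Est-1 had the shared peak only, as it did at FHY1.

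Fewer than 4 lists held 16 of the regions. In 10 of them every peak ranked below 50, as in the Bay-0 peak inside PIF3 and the Est-1 peak inside HY5. In the whole data, 5610 regions were held by 3 lists, 4568 by 2 and 6333 by 1. Of these together, 3671 ranked above 50 in at least 1 list, so most were weak there too. The other 6 of the 16 ranked above 50 in at least 1 list, 3 at PIF5, 2 at HFR1 and 1 at FHY3. In all 6, each list without a call had its own peak within 300 bp, at 30 to 250 bp, which 59.6% of such regions in the whole data had. The exact 95% interval of 6 of 6 is 54.1% to 100%, so it includes that background. Reads were placed on the TAIR10 reference, which was built from Col-0, and sequence that differs in an accession can also cost a call there; this was not tested.

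**Figure D4:**
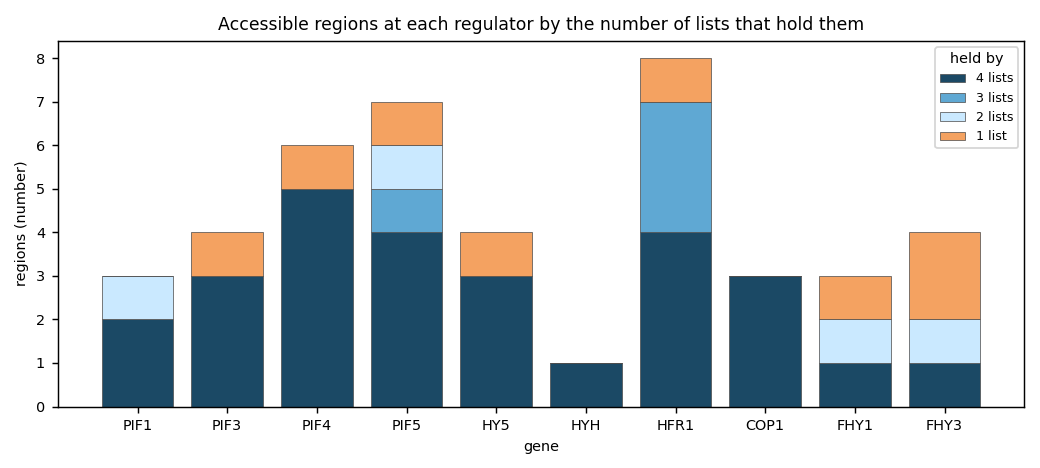
Number of regions at each gene (y axis), split by how many of the 4 lists hold them (colours). PIF4 has 5 of 6 regions in all 4 lists, COP1 has 3 of 3 and HYH 1 of 1, while FHY3 has 1 of 4.

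Of the 43 regions 33 lay wholly outside the gene span (76.7%, exact interval 61.4 to 88.2), 6 crossed a gene end and 4 were inside. Over all coding genes, 71.9% of the regions in their windows lay wholly outside the gene, so the interval includes the background. The flanks made up 58.0% of the windows of the 10 genes and 62.6% of those of all coding genes. Of the 43 regions 26 had the listed regulator as the nearest coding gene of their midpoint. The same share over all coding genes was not counted, so whether this is usual for such windows is unknown. Within the gene span alone, PIF1, PIF3, PIF4, PIF5, HFR1 and FHY3 had a peak in all 4 lists, 6 of 10, against 22.7% of all coding genes.

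A list of 25 further genes of the pathway was set beside them, and 23 had a peak in all 4 lists, where 63.3% of all coding genes did. When a peak counted only for its nearest coding gene, 18 of the 25 did, and BBX22, BBX25, DDB1A, LAF1 and FHL dropped out. The share of all coding genes was not counted by nearest gene, so the 63.3% is no background for the 18. The ranks of the 25 below are over the whole window and were not recounted by nearest gene. The highest peak ranked above 50 in all 4 lists for 17 of the 25, against 33.1% of all coding genes, and above 90 for 4, against 6.02%. The 5 with the highest lowest rank were SPA1, BBX22, GBF1, BBX24 and BBX21. SPA1, a partner of COP1, had a highest rank of 99.7 or more in each list. In Est-1 that peak was nearest to AT2G46360, and the strongest region nearest to SPA1 ranked 99.2 there. BBX22 and BBX21, B-box factors that act with HY5, reached at least 97.7 and 86.6. GBF1, a bZIP factor that binds the G-box, reached at least 96.5, and BBX24, a B-box factor that opposes HY5, at least 91.1. COP10, a ubiquitin-conjugating enzyme variant, had no Tsu-1 peak and ranked 42.3 in Bur-0, 4.68 in Bay-0 and 4.31 in Est-1. CSN5A, a COP9 signalosome subunit, had no Bur-0 peak and ranked 16.8 in Tsu-1, 3.28 in Est-1 and 33.1 in Bay-0.

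The 25 genes were grouped by role after these values were seen. All peaks of the window count here, and by nearest coding gene BBX22, BBX25 and FHL each lacked a peak in at least 1 list. A highest rank above 50 in all 4 lists was found for all 4 further PIF-type bHLH genes (PIF6, PIF7, PIF8 and PIL1). It was also found for all 7 HY5 partners and shade regulators, among them PAR1 and PAR2, and for RUP1 and RUP2, which damp the UV-B response. Of the phytochrome A signalling and MYB genes it was found for FHL, 1 of 3. There FAR1 ranked as low as 44.3 in Est-1, and LAF1, a MYB factor, ranked 24.9 to 67.1. Of the 9 COP1 partners and degradation genes it was found for SPA1, SPA3 and SPA4, 3 of 9, a share near the 33.1% of all coding genes, with SPA3 at 50.1 in Bur-0 just above the limit. SPA2 ranked 18.7 to 41.0, DET1 11.1 to 32.6 and DDB1A 6.44 to 23.2, beside 26.4 to 53.0 for COP1.

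**Figure D5:**
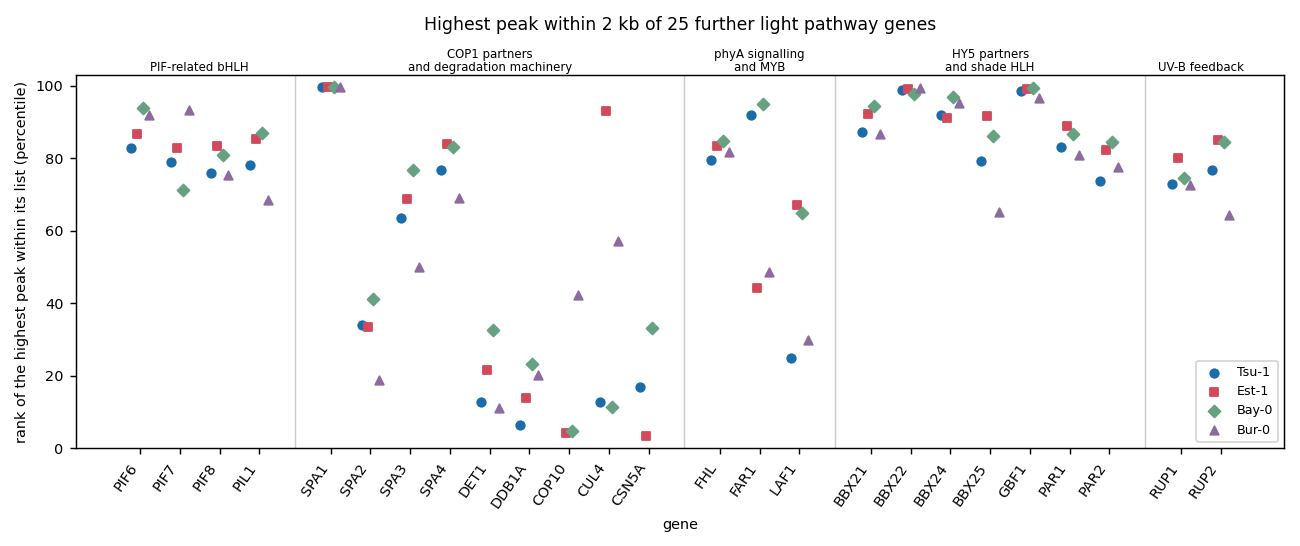
Rank of the highest peak within its list (y axis, percentile) for 25 further light pathway genes (x axis) by accession (symbols), grouped by role. All 7 HY5 partners and shade regulators lie above 50 in each list, and DET1 and DDB1A lie below 33 in each. SPA1 lies at 99.7 or above in each, in Est-1 through a peak nearest to AT2G46360. A missing symbol means that the list has no peak.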

How the data were processed

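Peak lists from 4 DNase I-seq libraries, 1 per accession, were analysed, and each sample was placed by the accession name in its source label. Per the labels' protocols, biotin-tagged nuclei were captured and digested at 25°C with 45 units of DNase I, for 3 minutes. The submitters' processing notes name Bowtie 0.12.7 and TAIR10. Peak caller, threshold and depth were not given in the sources used here. The authors gave each peak a signal, deposited as a whole number without stated scaling. The deposited −log10 p of each peak has a ceiling of 324. About 99.9% of peaks in each list were 150 bp wide.

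From these, peaks on the 5 nuclear chromosomes were ranked by signal within each list. A peak counted at a gene when at least 1 bp overlapped the gene span plus 2 kb each side. Gene spans came from a RefSeq table of TAIR10.1, whose coordinates are not printed. Sliding regions over gene ends in steps of 50 bp, up to 20000 bp, gave a best shift of at most 50 bp in all 15 stretches. The table has no strand, exons or sequence, so the planned motif counts were not run and no sequences are shown. The table lists PIF1 as PIL5 and PIF5 as PIL6. All 25 pathway genes matched by ID and name. No test between accessions was possible. Overlap counting was tested on simulated data (200 genes, 0 errors). Members, lists and alternatives were chosen with earlier results of these data known. Named were all 10 regulators, pathway genes lacking a peak in some list, the 5 of highest lowest rank, and the 3 genes most like the widest-ranging regulator; other genes were named after their values were seen. Alternatives were other windows, overlaps, rankings, list lengths and leaving out each accession. Python 3.11.15, pandas 2.3.3, numpy 2.4.6 and scipy 1.17.1 were used.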

Additional observations from a re-analysis of the deposited data

How the results depend on the processing

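With 1 library per accession, an absent call cannot be told from shallow sequencing, and ranks carry no replicate error. All 10 regulators kept a peak in all lists with windows of 1000 or 500 bp, with equally long lists and without any 1 accession. With the gene span alone the counts fell to 6 of 10 regulators and 10 of 25 pathway genes. When a peak counted only for its nearest coding gene, HY5 dropped out, leaving 9 regulators, and 18 of 25 pathway genes remained. With the stronger 50% of each list COP1 and FHY1 dropped out, leaving 8 regulators. The share of all coding genes was counted only with 2 kb each side (63.3%) and with the gene span alone (22.7%). The gene counts under the other settings therefore have no background to be read against. Peaks at the regulators in Tsu-1, Est-1, Bay-0 and Bur-0 numbered 19, 19, 17 and 18 with 500 bp and 7, 8, 7 and 6 with the gene span. By nearest gene they numbered 20, 23, 22 and 22 in the same order, which left 26 regions. The share of regions in all lists ran from 53.3% (overlap of at least 50% of both peaks, 40.4% over all regions) to 74.4% (without Bay-0, 58.3% over all regions). The median highest rank by −log10 p was 88.1 in Tsu-1, 93.5 in Est-1, 86.8 in Bay-0 and 89.1 in Bur-0. The Est-1 value is the tied rank of all peaks at the ceiling of −log10 p, which 13.0% of that list and 6 of the 10 regulators reached, so it measures no difference in strength. By nearest gene the median highest rank by signal was 91.75 in Tsu-1, 87.8 in Est-1, 88.6 in Bay-0 and 94.0 in Bur-0. The Tsu-1, Bay-0 and Bur-0 medians are over 9 genes, since HY5 had no peak left there. The Est-1 median is over 10, with HY5 at 12.3, so these medians cover unlike sets of genes. With 1000 bp the median was 91.3 in Tsu-1, 90.7 in Est-1, 90.5 in Bay-0 and 86.1 in Bur-0. No paired analysis was possible because each accession has 1 library and no test was made.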

Other observations

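FAR1, the close relative of FHY3 that acts with it on FHY1, and CUL4, the cullin scaffold of the COP1 ligase complexes, were singled out after their values were seen. A region across the low end of FAR1 (chromosome 4, 8613901 to 8614150) was called in all 4 lists, with signals of 283 in Tsu-1, 56 in Est-1, 441 in Bay-0 and 60 in Bur-0. It ranked 95.1 in Bay-0 and 92.0 in Tsu-1 but 1.83 in Bur-0 and 0.466 in Est-1, near the bottom of those lists. The peaks of this region were offset between lists. With the gene span alone FAR1 lacked a peak in at least 1 list, so not every peak crossed the gene end. The neighbouring regions of the FAR1 window, nearest to AT4G15080, ranked 26.1 to 70.2 over the 4 lists. At CUL4, a region 665 bp beyond the high end (chromosome 5, 18737481 to 18737630) ranked 93.0 in Est-1 and 57.2 in Bur-0 and had no call in Bay-0 or Tsu-1. A region across that end ranked 8.05 to 12.7 in Tsu-1, Est-1 and Bay-0. With 1 library per accession neither difference was tested.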
